A study of Caenorhabditis elegans with 30 samples.

Results

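Messenger RNA of dpy-21(e428) XX hermaphrodites was set against that of XO hermaphrodites that carry her-1(e1520) on chromosome V and sdc-2(y74) on X and were fed vector RNAi. The first group carries a pair of X chromosomes with impaired dosage compensation, and the second a single X on which dosage compensation does not act. The comparison took every gene whose mean RPKM over the 2 groups was above 1. RPKM is a read number scaled to transcript length and to the mapped reads of the library. Of 46170 genes in the deposited table, 15433 met this rule, and 15270 of them lie on the nuclear chromosomes, 2547 on X and 12723 on autosomes. A further 147 had no place in the annotation and 16 were mitochondrial. The deposited table holds 1 mean per group, made from 4 libraries of dpy-21(e428) and 5 of XO vector RNAi. No error between libraries can therefore be computed, no test was run, and every value below describes these group means. The depth behind them is unknown from the files used.

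All animals were L3 larvae taken whole, 24 h after synchronized L1 larvae were plated. The dpy-21(e428) strain, EKM71, was described as grown on NGM plates. The XO strain, TY1072, was fed bacteria carrying the empty RNAi vector. Strain, karyotype, the her-1 and sdc-2 mutations and the feeding therefore all differ between the 2 groups and cannot be told apart. XO animals with these mutations develop as hermaphrodites, so that sex of the body was the same. In whole larvae, fewer cells of a type and less RNA per cell cannot be told apart. Mean levels in wild-type XX animals (strain N2, 4 libraries) and in XO animals of the same strain labelled mys-1(RNAi) (5 libraries) are given for the genes with the most extreme ratios or levels and for a few others. In the latter, mys-1 RNA was higher and not lower than with vector RNAi (51.7 against 15.7 RPKM), and the reason was not tested. The paper reports that this RNAi brought MYS-1 protein below detection on western blots of L3 larvae. That group is named by its label throughout.

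In C. elegans, XX hermaphrodites lower transcription from each X through the dosage compensation complex, or DCC, which contains a condensin and several non-condensin proteins. SDC-2 brings the complex to X and, with SDC-1 and SDC-3, also represses the autosomal male-determining gene her-1. DPY-21 is a non-condensin DCC member that demethylates histone H4 lysine 20. XO animals express xol-1 in the embryo, which keeps sdc-2 off, and their single X is not bound by the complex.

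The genes mutated in the strains were examined first, as a check of the labels. The mean RPKM of her-1 was 9.66 in dpy-21(e428) XX, 434 in XO vector RNAi, 428 in the XO libraries labelled mys-1(RNAi) and 1.70 in wild-type XX. Its RNA was thus far more abundant in both XO groups than in both XX groups, with a log2 ratio of dpy-21(e428) to XO vector RNAi of -5.47. For sdc-2 the means were 4.96 in dpy-21(e428), 0.051 in XO vector RNAi, 0.071 in those labelled mys-1(RNAi) and 4.03 in wild-type XX. The RNA of dpy-21 itself was at 30.1 RPKM in dpy-21(e428), 37.4 in XO vector RNAi and 29.6 in wild-type XX, so the level of this RNA does not mark the mutant. The e428 allele was not checked in any other way.

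The DCC is recruited to X through sites that share a 12-base motif with the core GCGCAGGG, which was searched in its extended form with TC before and AG after the core. Both strands of the genome were searched, and the core was found 81 times on X, or 4.57 times per Mb, and 233 times on the autosomes, or 2.82 per Mb. The extended motif was found 3 times on X and 0 times on the autosomes, and these 3 are among the 81. These matches are printed because the complex acts on X, and the core inside her-1 because SDC proteins also repress that gene. Each is given from 5′ to 3′ on the strand that holds the motif, with the motif in capitals and 20 bases on either side, from the WBcel235 assembly. A match is a description of these letters and not a binding site.
site 1, chrX:2997101-2997152, minus strand: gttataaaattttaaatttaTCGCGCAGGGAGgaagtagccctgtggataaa
site 2, chrX:2997276-2997327, minus strand: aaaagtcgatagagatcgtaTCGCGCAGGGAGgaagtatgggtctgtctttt
site 3, chrX:11094103-11094154, minus strand: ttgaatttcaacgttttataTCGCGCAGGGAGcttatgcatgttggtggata
site 4, chrV:9698971-9699018, plus strand: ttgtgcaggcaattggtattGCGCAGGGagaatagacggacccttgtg

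Sites 1 and 2 lie 5.65 and 5.83 kb from osm-5, their nearest protein-coding gene among those compared, an intraflagellar transport gene with 3.95 RPKM in dpy-21(e428) and 3.58 in XO vector RNAi (log2 ratio 0.14). Site 3 lies 2.83 kb from W02H3.3, which had 8.14 RPKM in dpy-21(e428) and 2.61 in XO vector RNAi (log2 ratio 1.6). Site 4 lies in intron 2 of the longer her-1 transcript, 1.98 kb from its start. The core occurs in 1.46% of all genomic windows as long as her-1, which spans 5021 bp. X-linked genes were also divided into quartiles by their distance to the nearest core on X. The median log2 ratio was 0.46 in the nearest quartile, 0.50 and 0.48 in the next ones and 0.52 in the farthest, which began at 158 kb. The medians thus differed little with distance from these letters.

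X-linked RNA was higher in dpy-21(e428) XX than in XO vector RNAi, relative to autosomal RNA. The log2 ratio of group means, with 0.1 RPKM added to each, had a median of 0.49 on X (quartiles -0.044 and 0.93) and of -0.21 on autosomes (quartiles -0.66 and 0.17). The difference of 0.70 corresponds to a factor of 1.62. The added 0.1 RPKM understates the ratios of genes with low levels. A total of 73.3% of X-linked genes and 35.4% of autosomal genes had a ratio above 0, and 80.0% of X-linked genes lay above the autosomal median. Since the median of all autosomal genes was not at 0, list values further on are read against -0.21 for autosomal genes and 0.49 for X-linked genes.

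The medians of the autosomes resembled each other. Chromosome V had the lowest median (-0.23) and II the highest (-0.19), with I, III and IV at -0.20, a span of 0.045. Each of the 5 was more than 0.6 below X on the log2 scale. The shares past 2-fold were less alike. On I, 11.8% of genes were lower and 3.4% higher, and on V 19.9% were lower and 8.67% higher. The plot by chromosome also shows that the ratios of single genes scattered widely on each chromosome.

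**Figure D1:**
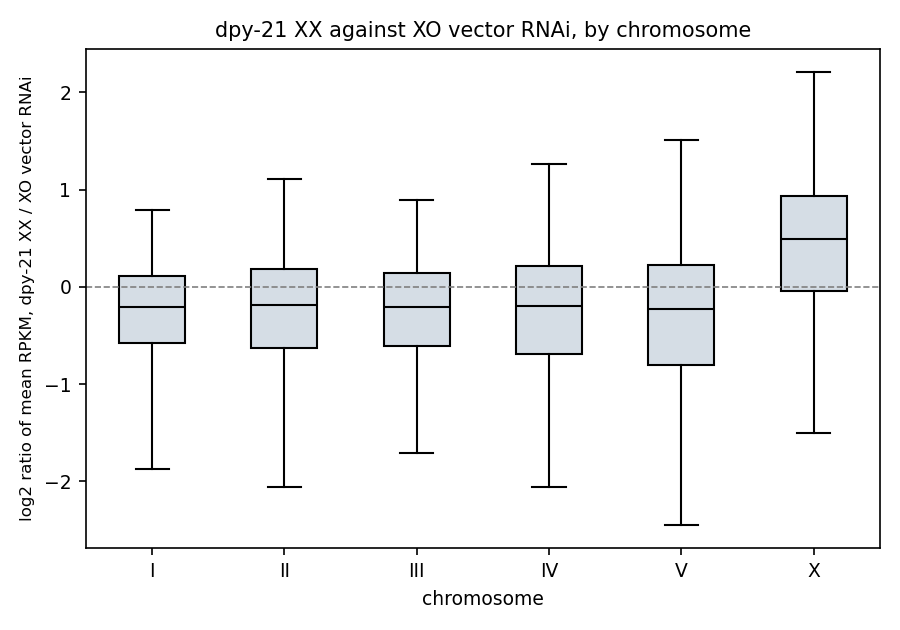
Log2 ratio of mean RPKM in dpy-21(e428) XX to that in XO vector RNAi for the genes of each chromosome, on a linear axis of log2 values. Boxes span the quartiles, lines inside them are medians and whiskers leave out the outermost 5% of genes at either end; the median is 0.49 on X and between -0.23 and -0.19 on the autosomes.

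At least 2-fold higher levels in dpy-21(e428) were found for 1337 genes, 8.76% of all 15270, and at least 2-fold lower levels for 2177 genes, 14.3%. On X, 574 genes were higher (22.5%) and 214 were lower (8.4%). On autosomes, 763 were higher (6%) and 1963 were lower (15.4%). Of the autosomal genes past 2-fold, 28.0% were higher as deposited, and 40.1% were higher once all ratios were centered on the autosomal median, which left 1009 higher and 1506 lower. On X the same shares were 72.8% and 82.6%. Counts within gene lists are read against these shares of all genes. These counts include genes near the filter, since 385 of the genes compared were listed at 0 in dpy-21(e428) and 205 in XO vector RNAi. A gene could pass through 1 group alone, and 937 were at or under 1 RPKM in dpy-21(e428) and 525 in XO vector RNAi. At the filter itself, Y49A10A.1 was just inside with 0.32 and 1.68 RPKM in dpy-21(e428) and XO vector RNAi, and F10A3.1 was just outside with 1.71 and 0.29.

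The level of X itself can be read from the medians over the same genes. The median of X-linked genes was 12.5 RPKM in dpy-21(e428), 9.26 in XO vector RNAi, 9.36 with the mys-1(RNAi) label and 8.38 in wild-type XX. The autosomal medians were 12.3, 14.3, 14.7 and 12.1 RPKM in the same order. Thus the median of X was near that of the autosomes in dpy-21(e428) and below it in the other 3 groups. Against wild-type XX, the median log2 ratio of dpy-21(e428) was 0.59 on X and 0.00 on autosomes, and that of XO vector RNAi was 0.12 on X and 0.21 on autosomes. The last 2 comparisons share the wild-type libraries, and each shares a group with the main comparison. The filter used dpy-21(e428) and XO vector RNAi alone, so genes expressed only in wild-type XX were left out. This can shift the wild-type medians and the ratios over wild type, and the direction and size of the shift were not tested.

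The difference between X and autosomes was present at all levels of expression. Genes were divided into quartiles of their mean RPKM over both groups, with limits at 4.33, 13.1 and 34.7 RPKM. From the lowest to the highest quartile, X exceeded the autosomes by 0.71, 0.71, 0.77 and 0.63 on the log2 scale. The share of X-linked genes at least 2-fold lower was 14.6% in the lowest quartile and 4.78% in the highest. In the lowest quartile the X median itself was 0.27 and that of the autosomes -0.44, so both were lower there than among stronger genes.

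**Figure D2:**
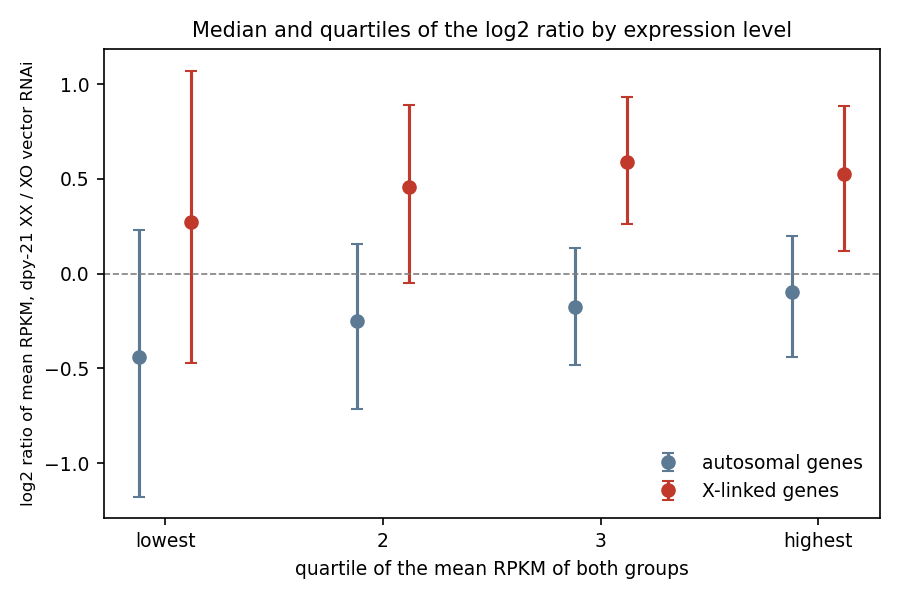
Median log2 ratio of dpy-21(e428) XX to XO vector RNAi for X-linked and autosomal genes in each quartile of mean RPKM. Points are medians and bars span the quartiles of genes, not an error between libraries; the distance between X and autosomes is 0.71, 0.71, 0.77 and 0.63 from the lowest to the highest quartile.

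The higher X ratio was spread along the chromosome. In 18 windows of 1 Mb on X, holding 77 to 195 genes each, the median log2 ratio lay between 0.26 and 0.73, and all 18 were above 0. Of 84 autosomal windows, whose medians lay between -0.42 and 0.23, 6 were above 0. Protein-coding genes had medians of 0.49 on X (2027 genes) and -0.21 on autosomes (11038 genes). Noncoding RNA genes were alike, with 0.53 on X (445 genes) and -0.33 on autosomes (1042 genes), whereas the 34 X-linked pseudogenes had a median of -0.017.

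H4K16ac, an acetylation of histone H4 found at active genes, had been mapped by ChIP-seq in wild-type XX and in XO larvae, and a peak list was deposited for each. The ratio of X-linked genes depended little on whether a peak overlapped the 500 bp upstream of the gene. The median log2 ratio was 0.51 for 624 genes with a peak in both lists, 0.51 for 734 genes with a peak in the XO list alone, 0.58 for 28 genes in the XX list alone and 0.45 for 1161 genes in neither. With promoters of 1000 bp the class in the XX list alone held 16 genes with a median of 0.16. Of X-linked genes with a peak in both lists, 12% were at least 2-fold higher in dpy-21(e428). This was below the 26.8% in the XO list alone, the 28.6% in the XX list alone and the 25.3% in neither. On autosomes the share was also lowest with a peak in both lists (3.08%). It was 8.16% in the XO list alone, 6.81% in the XX list alone and 10.8% in neither. X-linked genes with a peak in both lists also had a higher median level (18.2 RPKM) than the other classes. Those had 12.6 RPKM in the XO list alone, 13.6 in the XX list alone and 6.90 in neither. The part of expression level in these shares was not tested.

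Among the most abundant X-linked RNAs were a pair of ribosomal proteins with autosomal counterparts. The mean RPKM of rpl-11.2 was 6541 in dpy-21(e428), 3439 in XO vector RNAi, 3409 in those labelled mys-1(RNAi) and 3778 in wild-type XX, a log2 ratio of 0.93. For rpl-25.1 the means were 4941, 1978, 2027 and 2611 RPKM in the same order, a log2 ratio of 1.32. The autosomal rpl-11.1 had 285 RPKM in dpy-21(e428) and 321 in XO vector RNAi, and rpl-25.2 had 1689 and 1677, log2 ratios of -0.17 and 0.01. These 2 autosomal genes were added to the description after their values had been seen. Reads shared by such similar genes may have been divided between them.

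The other 3 of the 5 most abundant X-linked genes were also higher in dpy-21(e428). They were spp-14, which encodes a saposin-like protein (5061 against 3146 RPKM, log2 ratio 0.69), act-4, an actin (2544 against 1923, 0.40), and pdi-2, a protein disulfide isomerase (2404 against 1759, 0.45). In wild-type XX these 3 had 2181, 2063 and 1808 RPKM, the XO group with the mys-1(RNAi) label had 3092, 1866 and 1846, and dpy-21(e428) had the highest mean of all 4 groups for each.

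The X-linked genes with the highest ratios, among named protein-coding genes with a mean above 10 RPKM, encode proteins of unlike kinds. The globin gene glb-17 had 48.3 RPKM in dpy-21(e428), 9.32 in XO vector RNAi, 10.6 in those labelled mys-1(RNAi) and 17.6 in wild-type XX (log2 ratio 2.36). The immunoglobulin-domain gene zig-6 had 83.0, 17.6, 23.4 and 58.2 RPKM in the same order (2.23). For the cuticle collagen col-172 the means were 103, 22.6, 37.5 and 264 RPKM (2.19), so that wild-type XX was the highest of the 4 groups. The tyrosine aminotransferase gene tatn-1 had 338, 78.6, 86.5 and 260 RPKM (2.1), and the spinster-like transporter gene spin-3 had 20.3, 4.87, 7.37 and 11.1 (2.04). Each of the 5 was lower in both XO groups than in both XX groups.

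A few X-linked genes went the other way by a large margin. The lowest was ins-39, an insulin-like peptide gene, with 0.26 RPKM in dpy-21(e428), 54.2 in XO vector RNAi, 45.0 in those labelled mys-1(RNAi) and 0.21 in wild-type XX, a log2 ratio of -7.23. It was near absent in both XX groups and plainly present in both XO groups. The next were nspc-17, nspc-18 and nspc-19, neighbors that belong to a nematode-specific peptide family. Their levels in dpy-21(e428) were 15.4, 10.7 and 7.10 RPKM and in XO vector RNAi 117, 80.8 and 43.8, log2 ratios of -2.92, -2.91 and -2.61. In wild-type XX they had 34.1, 30.2 and 13.9 RPKM, between the other 2 groups. Of the 13 nspc genes compared, all X-linked, 11 were at least 2-fold lower in dpy-21(e428) and 0 were higher, and their median was -1.63. Of all X-linked genes, 8.4% were lower and 22.5% higher. This family was listed after its values had been seen, and its members are so alike that reads could not always be assigned to one of them.

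**Figure D3:**
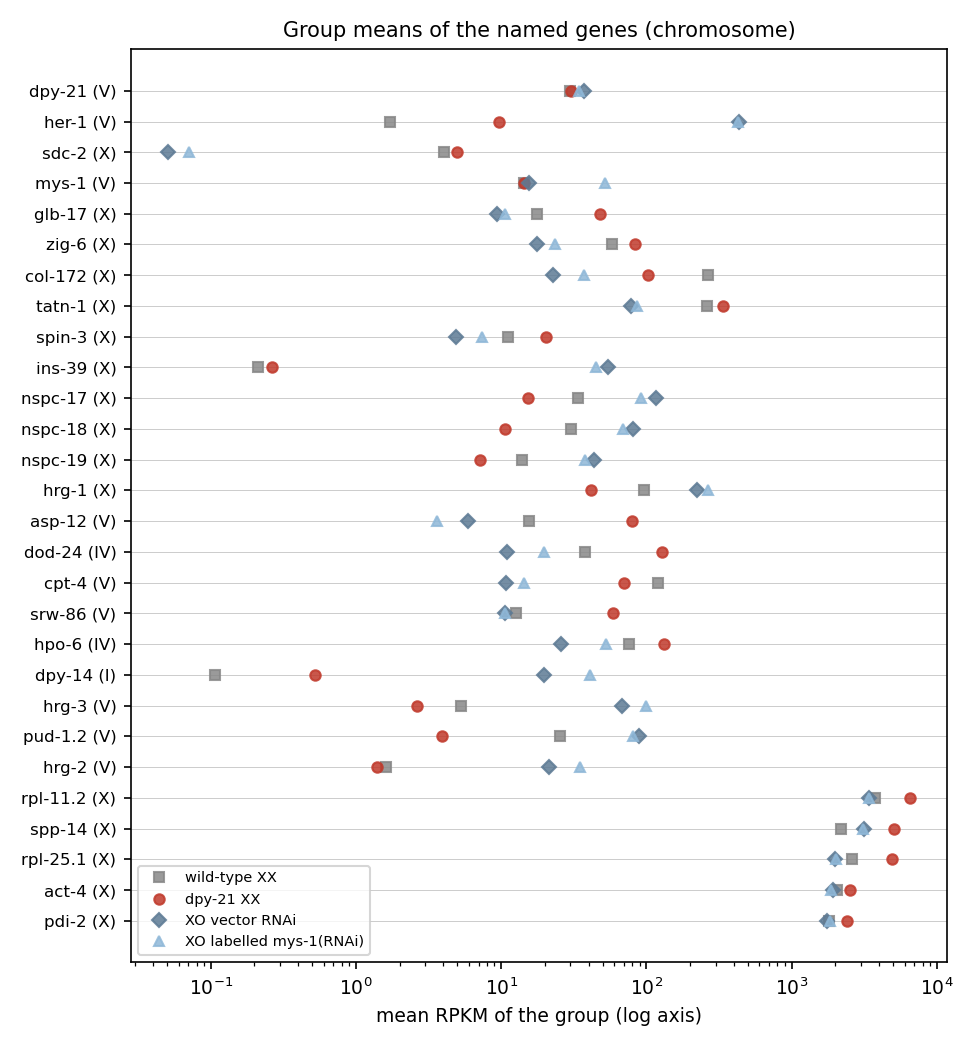
Mean RPKM, on a log axis, of the strain and RNAi genes and of the genes with the highest ratio, lowest ratio or highest level, in the 4 RNA groups, with the chromosome of each gene in brackets. Each point is 1 group mean without an error; her-1 and ins-39 lie near 434 and 54.2 RPKM in XO vector RNAi and at 9.66 and 0.26 in dpy-21(e428).

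Most genes of heme transport described here were lower in dpy-21(e428) than in XO vector RNAi. Summed over the 6 that passed the filter, the level was 89.0 RPKM in dpy-21(e428) and 158 in wild-type XX. It was 432 RPKM in XO vector RNAi and 553 with the mys-1(RNAi) label, so both XO groups were above both XX groups. C. elegans makes no heme and takes it from its food, and HRG-1 and HRG-4 carry heme into the cytosol. The mean RPKM of hrg-1, on X, was 41.9 in dpy-21(e428), 224 in XO vector RNAi, 264 in those labelled mys-1(RNAi) and 96.6 in wild-type XX (log2 ratio -2.41). The autosomal genes hrg-2 and hrg-3 were also among the 5 lowest autosomal ratios. For hrg-3, which encodes a secreted heme carrier, the means were 2.62, 67.8, 99.3 and 5.33 RPKM in the same order (-4.64), and for hrg-2 they were 1.39, 21.3, 35.1 and 1.61 (-3.84). Added after these values had been seen, hrg-4 (6.34 against 40.6 RPKM, -2.66) and the X-linked heme exporter gene mrp-5 (29.5 against 70.6, -1.26) had lower levels in dpy-21(e428) as well, whereas hrg-6 had 7.26 against 7.94 RPKM. The XO animals were fed another bacterial strain than was described for dpy-21(e428), and the part of the food in these levels cannot be told apart from karyotype and strain.

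Among autosomal genes, the highest ratios were those of asp-12, an aspartyl protease gene, with 79.9 RPKM in dpy-21(e428), 5.93 in XO vector RNAi, 3.64 in those labelled mys-1(RNAi) and 15.6 in wild-type XX (log2 ratio 3.73), and dod-24, a gene known to respond to insulin signaling, with 129, 11.0, 19.6 and 37.9 RPKM in the same order (3.54). The carnitine palmitoyltransferase gene cpt-4 had 70.4, 10.9, 14.3 and 119.9 RPKM (2.68), so that wild-type XX was the highest group. The chemoreceptor gene srw-86 had 58.6, 10.7, 10.7 and 12.7 RPKM (2.44), and dpy-21(e428) stood apart from the other 3 groups. For hpo-6 the means were 133, 25.8, 52.5 and 75.8 RPKM (2.37). Besides her-1, hrg-2 and hrg-3, the lowest were dpy-14, a collagen gene, with 0.52 RPKM in dpy-21(e428), 19.6 in XO vector RNAi, 40.9 in those labelled mys-1(RNAi) and 0.11 in wild-type XX (-4.98), and pud-1.2, named for protein that is raised in daf-2 mutants, with 3.90, 88.8, 81.6 and 25.4 RPKM (-4.47). The further pud genes pud-3 and pud-4 had log2 ratios of -3.42 and -2.70. They were listed after their values had been seen, and because pud-1.1, pud-2.1 and pud-2.2 were listed at 0 in every group, reads may have been assigned to 1 of several near-identical copies.

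Insulin-like peptide genes showed the lowest median of the lists examined, apart from the nspc, pud and heme genes. These peptides act on the DAF-2 receptor, some as agonists and some as antagonists. Of 39 measured genes, 27 passed the filter, 17 of those were at least 2-fold lower in dpy-21(e428) and 0 were higher, beside 14.3% and 8.76% of all genes. A member could pass through XO vector RNAi alone, as ins-39 did with 0.26 against 54.2 RPKM. How many of the 17 did so was not counted, and no list was recounted with more than 1 RPKM in both groups. The 25 autosomal members had a median log2 ratio of -1.63, against -0.21 for all autosomal genes. The most abundant, ins-27, had 134 RPKM in dpy-21(e428) and 152 in XO vector RNAi (-0.18), and the highest ratio was that of ins-11 (6.60 against 6.02 RPKM, 0.13). Further members were named after their values were seen. The mean RPKM of ins-35 was 22.9 in dpy-21(e428), 112 in XO vector RNAi, 121 in those labelled mys-1(RNAi) and 47.2 in wild-type XX, that of ins-33 was 8.27, 58.9, 40.6 and 11.6, and that of ins-28 was 3.98, 24.3, 18.6 and 4.48. For each of these 3 genes both XO groups were above both XX groups. A few members, among them ins-17 (38.1 against 40.3 RPKM), were close to equal.

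**Figure D4:**
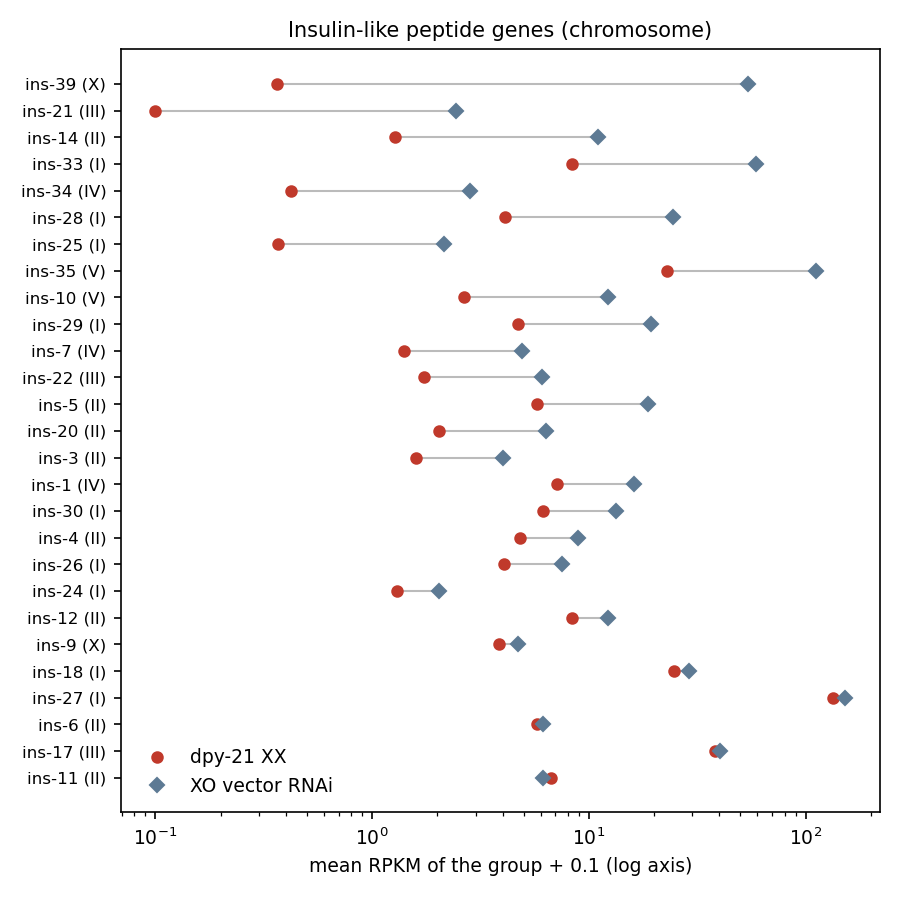
Mean RPKM plus 0.1, on a log axis, of the 27 insulin-like peptide genes that passed the filter, in dpy-21(e428) XX and XO vector RNAi, ordered by their ratio, with chromosomes in brackets. Each point is 1 group mean without an error; 17 genes are at least 2-fold lower in dpy-21(e428), and ins-11 alone is higher.

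The genes of DAF-2 receptor signaling, daf-2 among them, were closer to the background than the peptide genes but still below it. The 6 autosomal members had a median of -0.61, 0.41 below that of all autosomal genes. The 4 X-linked members had one of 0.037, 0.46 below that of all X-linked genes. Of 10 listed, akt-1, which encodes a kinase of the pathway, was at least 2-fold lower in dpy-21(e428) (24.5 against 69.5 RPKM, log2 ratio -1.50) and 0 were higher. Of all genes, 14.3% were lower and 8.76% higher. The receptor gene daf-2 had 16.7 against 29.3 RPKM (-0.81), the phosphoinositide kinase genes age-1 (catalytic) and aap-1 (adaptor) had -0.65 and -0.40, and the phosphatase gene daf-18 had -0.58. The transcription factor gene daf-16 was at 85.7 and 82.7 RPKM (0.05). The X-linked members ist-1, pdk-1, akt-2 and sgk-1 had log2 ratios of 0.07, -0.0014, -0.20 and 0.24, each below the X median of 0.49.

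Muscle genes as a group were lower in dpy-21(e428) than in XO vector RNAi. The 28 body wall muscle genes encode the proteins of the contractile apparatus and its attachments. Of these, 5 were at least 2-fold lower and 0 higher, beside 14.3% and 8.76% of all genes. Their summed level was 16117 RPKM in dpy-21(e428), 20631 in XO vector RNAi, 20184 with the mys-1(RNAi) label and 14874 in wild-type XX. The 20 autosomal members had a median of -0.70, 0.49 below that of all autosomal genes, and the 8 X-linked members one of -0.022, 0.52 below that of all X-linked genes. The lowest ratio was that of unc-22, which encodes twitchin (27.2 against 70.6 RPKM, -1.37), the most abundant was pat-10, a troponin C gene (1827 against 2925 RPKM, -0.68), and the highest ratio was that of the X-linked unc-97 (131 against 88.1, 0.57). All 6 pharyngeal muscle genes were below the autosomal median and 4 were at least 2-fold lower. They were the myosin genes myo-1 (39.5 against 138 RPKM, -1.80) and, on X, myo-2 (72.3 against 163, -1.17), and the troponin genes tnc-2 (46.5 against 131, -1.49) and tni-4 (105 against 261, -1.32), while tnt-4 had -0.97 and the factor gene ceh-22 -0.88. In wild-type XX the summed level of the 6 was 244 RPKM, below the 367 of dpy-21(e428), the 896 of XO vector RNAi and the 783 of the libraries labelled mys-1(RNAi).

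Touch receptor neuron genes stood on the other side. Their summed level was 683 RPKM in dpy-21(e428), 460 in XO vector RNAi, 507 with the mys-1(RNAi) label and 796 in wild-type XX. The 12 genes serve the mechanosensory channel, its microtubules and the fate of these cells. Of them, 3 were at least 2-fold higher in dpy-21(e428) and 0 lower, beside 8.76% and 14.3% of all genes. All 3 are among the 5 X-linked members, and 22.5% of all X-linked genes were higher. Of the 7 autosomal members 0 were higher, beside 6% of all autosomal genes. The 3 genes are mec-18 (34.5 against 10.2 RPKM, log2 ratio 1.75) and the channel genes mec-4 (9.43 against 3.99, 1.22) and mec-10 (5.85 against 2.61, 1.14). The other X-linked members, the tubulin gene mec-7 (215 against 121 RPKM) and the stomatin gene mec-2 (28.4 against 18.8), had ratios of 0.83 and 0.60. The 7 autosomal members had a median of 0.38, 0.59 above that of all autosomal genes. Among them were the tubulin gene mec-12 (186 against 142 RPKM, 0.38), the acetyltransferase gene mec-17 (144 against 117, 0.30), the factor genes mec-3 (0.56) and unc-86 (0.29), mec-9 (0.83) and mtd-1 (0.63), and mec-6 alone lay below the autosomal median (-0.70). Of 25 general neuronal and transmitter genes, 0 were at least 2-fold higher and 2 lower, with medians of 0.52 for 4 on X and -0.41 for 21 on autosomes. The lowest was cho-1, a choline transporter gene (5.02 against 11.8 RPKM, -1.22), the highest ratio was that of the X-linked unc-10 (23.3 against 12.4, 0.90), and the most abundant was snb-1, synaptobrevin (260.4 against 225 RPKM, 0.21).

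Neuropeptide genes of the flp and nlp families lay on both sides. Of 71 that passed, 9 were at least 2-fold higher and 17 lower, beside 8.76% and 14.3% of all genes. The median was 0.24 for 22 on X and -0.39 for 49 on autosomes. The highest ratio was that of the X-linked nlp-23 (6.58 against 0.39 RPKM, 3.76), the lowest that of nlp-5 (2.81 against 14.8, -2.36), and the most abundant was nlp-33, an antimicrobial peptide gene of the epidermis (647 against 833, -0.36).

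The known members of the X pathway were next. Of the 10 DCC genes, 1 was at least 2-fold higher, sdc-2, and 0 lower, beside 8.76% and 14.3% of all genes. The X-linked sdc-1 had 6.44 RPKM in dpy-21(e428) and 3.98 in XO vector RNAi (log2 ratio 0.68). The condensin subunit genes dpy-27, dpy-28, dpy-26, mix-1 and capg-1 had ratios of -0.49, -0.82, -0.35, -0.20 and -0.19, sdc-3 had -0.39 and dpy-30 had 0.16. Of the X signal elements, which count X chromosomes against autosomes, sex-1 (5.47 against 3.37 RPKM), ceh-39 (4.95 against 3.75) and fox-1 (26.6 against 22.6), all X-linked, had ratios of 0.68, 0.39 and 0.24. The autosomal signal element gene sea-2 had -0.71 (25.4 against 41.7 RPKM), and sea-1 and xol-1 did not pass the filter.

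In the sex determination pathway downstream of xol-1 and sdc-2, 12 autosomal genes passed, of which 2 were at least 2-fold lower, her-1 and fog-2 (1.32 against 3.46 RPKM, -1.32), and 0 higher. Of all autosomal genes, 15.4% were lower and 6% higher, so the share of lower genes in this list was near that of all autosomal genes. The receptor gene tra-2, on which HER-1 acts, had 17.9 RPKM in dpy-21(e428) and 16.6 in XO vector RNAi (0.11), and the terminal factor gene tra-1 had 58.2 and 51.0 (0.19). The genes fem-1, fem-2 and fem-3, which relay the signal, had ratios of -0.53, -0.16 and -0.31, tra-3 had -0.55, laf-1 -0.23, fog-1 0.18 and fog-3 -0.31. The downstream factor gene mab-3 had 4.78 against 2.88 RPKM (0.71), and dmd-3 did not pass the filter. The 434 RPKM of her-1 in XO vector RNAi thus stood beside ratios between -0.55 and 0.71 for the other genes of the list that passed, except fog-2.

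Genes of histone acetylation and of H4K20 methylation are all autosomal here. Of 14, 12 lay above the autosomal median and 1 was at least 2-fold lower, set-1, which encodes the enzyme that adds the first methyl group to H4K20 (13.3 against 27.8 RPKM, -1.05). Of all autosomal genes, 15.4% were lower. The H4K20 methyltransferase gene set-4 had 15.9 against 18.0 RPKM (-0.17). The acetyltransferase genes mys-1, mys-2 and mys-4 had -0.11, 0.38 and 0.30, and the deacetylase gene sir-2.1 had -0.31. The Tip60 complex genes trr-1, ing-3, ssl-1, ruvb-1, ruvb-2, epc-1 and gfl-1 and the chromodomain gene mrg-1 lay between -0.20 and 0.21.

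Heterochronic genes, which time larval fates, lay above the medians of their chromosomes except for lin-28. The X-linked lin-14 had 96.0 RPKM in dpy-21(e428) and 56.3 in XO vector RNAi (log2 ratio 0.77), hbl-1 had 26.8 and 14.9 (0.84) and daf-12 had 104 and 67.3 (0.62). The autosomal lin-28, lin-41 and lin-29 had ratios of -0.25, -0.17 and -0.13, lin-46 had 0.24 and lin-66 had 0.66. Of the 8, 0 were past 2-fold in either direction. Of 16 molting genes, which cycle with each larval stage, 1 was higher and 1 lower, beside 8.76% and 14.3% of all genes. The X-linked factor gene nhr-25 had 46.8 against 18.4 RPKM (1.34), bli-5 had 2.27 against 5.34 (-1.20), and the most abundant, mlt-8, had 455 against 429 (0.08).

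Cuticle collagen genes of the col family spread widely. Of 91 that passed, 13 were at least 2-fold higher and 12 lower, beside 8.76% and 14.3% of all genes. The medians were 0.64 for 16 on X and -0.28 for 75 on autosomes. The highest ratio was that of the X-linked col-187 (5.28 against 0.92 RPKM, 2.41), the lowest that of col-38 (0.73 against 5.09, -2.64), and the most abundant was col-17 (1703 against 1754, -0.04). Of 17 body-shape collagens, dpy-14 and dpy-17 (0.77 against 19.0 RPKM, -4.46) were at least 2-fold lower and 0 higher, and dpy-17 was named after its values were seen. The most abundant of them, sqt-3, had 2665 against 2073 RPKM (0.36), and in wild-type XX 4544. The summed level of the col genes was 15900 RPKM in dpy-21(e428), 13986 in XO vector RNAi and 25265 in wild-type XX. The part of larval age in these levels was not tested.

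Cytosolic ribosomal protein genes were higher as a group without passing 2-fold. Of 77 that passed, 74 lay above the autosomal median, 1 was at least 2-fold higher, rpl-25.1, and 0 were lower. Of all genes, 8.76% were higher and 14.3% lower. The 75 autosomal members had a median log2 ratio of 0.26, 0.46 above that of all autosomal genes. The most abundant, rpl-29, had 12758 RPKM in dpy-21(e428), 6849 in XO vector RNAi and 14922 in wild-type XX (0.90), and the lowest ratio was that of rps-28 (-0.36). Their summed level was 405971 RPKM in dpy-21(e428) and 331268 in XO vector RNAi, of totals over all genes of 1235793 and 1160237. These totals differ between the groups as well. Whether the larger share of these genes bears on the ratios of others was not tested. The 32 proteasome genes had a median of 0.01 with 0 past 2-fold. Among them were pas-3, the most abundant (249 against 239 RPKM), pbs-1, with the highest ratio (252 against 183, 0.46), and rpn-2, with the lowest (59.0 against 83.8, -0.51).

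Genes of detoxification were often lower in dpy-21(e428) than in XO vector RNAi. Of 144 cytochrome P450, UDP-glucuronosyltransferase and glutathione transferase genes that passed, 47 were at least 2-fold lower and 2 higher. Of all genes, 14.3% were lower and 8.76% higher. The summed level of the 144 was 2284 RPKM in dpy-21(e428), 3221 in XO vector RNAi, 3585 with the mys-1(RNAi) label and 2226 in wild-type XX. The 133 autosomal members had a median of -0.59 and the 11 on X one of 0.25. The lowest was gst-18 (0.11 against 3.93 RPKM, -4.26), the highest ratio was that of gst-22 (23.4 against 7.07, 1.71), and the most abundant was gst-1 (197 against 255, -0.38). C-type lectin genes, many of which respond to bacteria, lay on both sides. Of 92 that passed, 11 were higher and 33 lower, from clec-169 (0.34 against 2.87 RPKM, -2.75) to clec-233 (14.2 against 1.67, 3.01), with clec-63 the most abundant (534 against 857, -0.68). Of 13 lysozyme genes, 2 were higher and 3 lower, from lys-6 (0.48 against 2.31, -2.05) to lys-10 (11.0 against 1.96, 2.42).

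Germ line genes mostly lay below the autosomal median, 21 of 26, with a median of -0.48. Of the 26, all autosomal, 0 were at least 2-fold higher and 5 lower, beside 6% and 15.4% of all autosomal genes. The lowest was syp-1, a protein of paired meiotic chromosomes (1.56 against 5.50 RPKM, -1.76), the highest ratio was that of htp-1 (4.16 against 3.05, 0.44), and the most abundant was car-1 (99.0 against 113, -0.20). The P granule gene glh-1, named after its values were seen, had 20.8 RPKM in dpy-21(e428), 39.7 in XO vector RNAi and 29.9 in wild-type XX. Sperm genes hardly contributed, with 6 of 70 above the filter and 0 past 2-fold, from spe-15 (-0.72) to spe-29 (0.66), and 0 of 6 vitellogenin genes passed. Of 23 genes of DNA replication and mitosis, 1 was lower, air-1, an Aurora kinase gene (29.6 against 60.0 RPKM, -1.02), and 0 were higher. Of 30 histone genes, 11 were lower and 0 higher, but most have near-identical copies and their values are uncertain. The median of the 26 autosomal members minus that of all autosomal genes was -0.46, and -1.22 with the libraries labelled mys-1(RNAi) as the XO group.

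The intestine was represented by 19 genes, of which 4 were lower and 1 higher, beside 14.3% and 8.76% of all genes. The metallothionein gene mtl-1 had the lowest ratio (2.71 against 16 RPKM, -2.52), and the saposin-like spp-5, on X, was the highest (2731 against 956, 1.51). The most abundant, asp-1, had 2610 against 2688 RPKM (-0.04). Of 22 genes of propionate breakdown and the methionine cycle, 2 were higher and 0 lower. The 2 lie on X, where 22.5% of all genes were higher. The autosomal members lay below or above all autosomal genes depending on which XO group was used. The 2 higher genes are X-linked, namely sams-1, which makes S-adenosylmethionine, the methyl donor of histone methylation (1304 against 577 RPKM, 1.18, and 596 in wild-type XX), and cbs-1 (60.1 against 28.7, 1.06), the latter named after its values were seen. The autosomal metr-1, methionine synthase, was the lowest (112 against 194 RPKM, -0.79), and ahcy-1 was the most abundant (1759 against 2070, -0.24). Of 19 lipid genes, 0 were higher and 2 lower, with acs-2, an acyl-CoA synthetase gene, the lowest (7.60 against 58.4, -2.93).

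The remaining lists are given by chromosome. Their counts past 2-fold stand beside 8.76% of all genes higher and 14.3% lower. The 172 autosomal nuclear hormone receptor genes had a median of -0.24 and the 18 on X one of 0.56, with 11 of all 190 higher and 17 lower. Hedgehog-related and patched-related genes had medians of -0.076 for 49 on autosomes and 0.060 for 11 on X, with 5 higher and 5 lower, and the side of the autosomal median on which their autosomal members lay depended on which XO group was used. Heat shock protein genes had -0.14 for 14 on autosomes and 0.71 for 3 on X, with 4 lower and 1 higher, the X-linked hsp-25 (437 against 218 RPKM, 1.00). Of 27 genes of RNA interference and small RNA, to which feeding on bacteria with double-stranded RNA pertains, 1 was higher, the transporter gene sid-2 (33.2 against 15.1 RPKM, 1.14), and 2 were lower, with hrde-1 the lowest (5.21 against 12.7, -1.27).

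**Figure D5:**
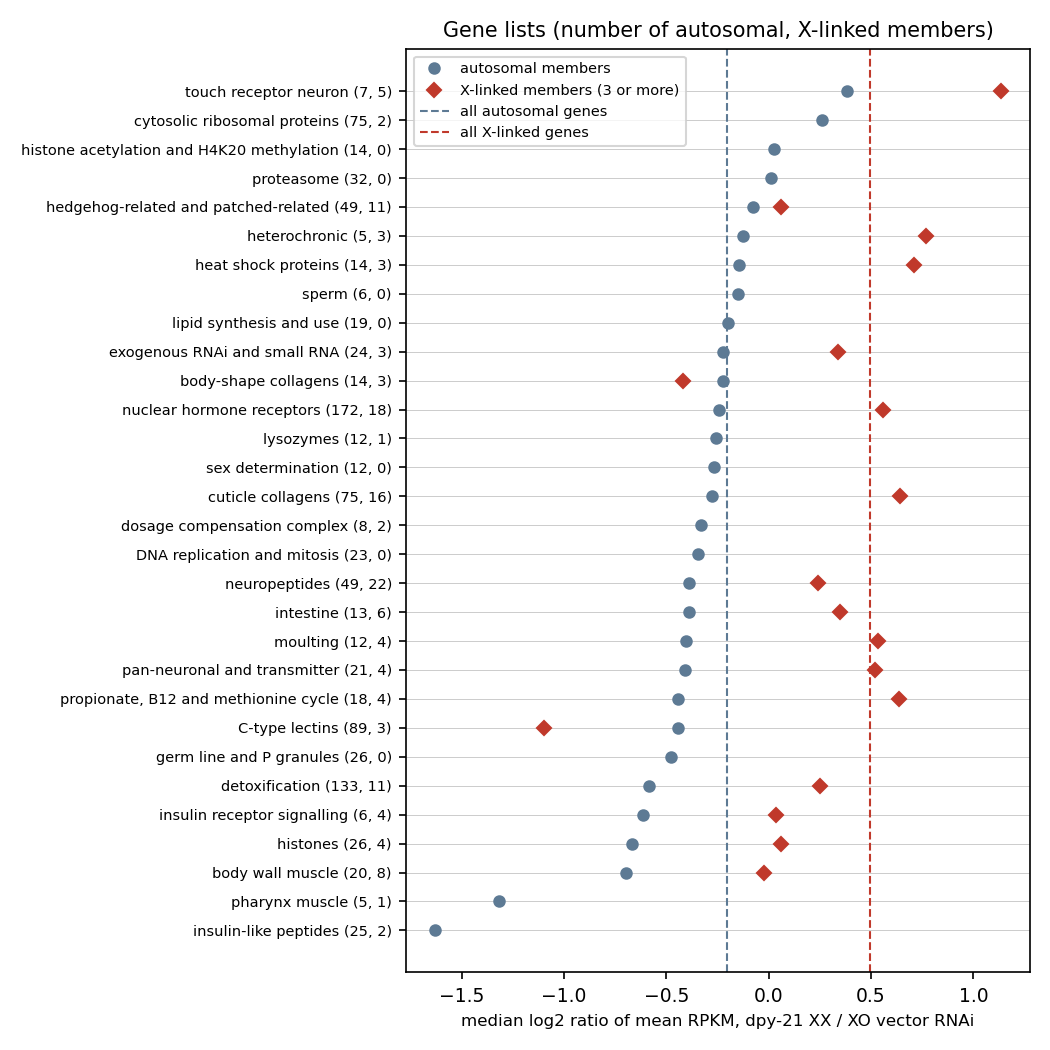
Median log2 ratio of dpy-21(e428) XX to XO vector RNAi for the autosomal members of each gene list with at least 5 of them and, where there are 3 or more, for its X-linked members, with the number of each in brackets; lists made after values had been seen are not plotted. Dashed lines mark the medians of all autosomal genes (-0.21) and all X-linked genes (0.49); autosomal members of insulin-like peptides and pharynx muscle lie lowest, of the plotted lists, at -1.63 and -1.32, and those of touch receptor neurons highest, at 0.38.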

How the data were processed

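Per the labels and methods, polyadenylated RNA was sequenced as non-stranded, single-end libraries (dpy-21(e428), 4; XO vector RNAi, 5). The authors trimmed reads with Trim Galore, aligned them to WS235 with TopHat2 (version 2.0.13, up to 20 hits a read), computed RPKM with Cufflinks (version 2.2.1), dividing multireads among their hits, and deposited group means of RPKM. Reads from overlapping genes, which 7327 of the genes compared are, cannot be told apart without strand. The H4K16ac peak positions were deposited as pooled lists, called by the authors with MACS2 (version 2.1.0). Columns left without a group numbered 0. A table with the authors' DESeq2 fold changes and p-values was not used.

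From the deposited RPKM, genes with a mean of both groups above 1 were placed with the Ensembl annotation of WBcel235 (release 115, later than the authors'), and log2((RPKM + 0.1)/(RPKM + 0.1)) was taken with pandas (version 2.3.3) and numpy (version 2.4.6). Medians, quartiles and counts past 2-fold were read; the procedure was tested on simulated data. Motifs were searched in the RefSeq FASTA of the same assembly.

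The members, lists and tests were chosen with earlier results of these data known. Named genes were the strain and RNAi genes, the 5 highest and 5 lowest ratios on X and on autosomes among named protein-coding genes above 10 RPKM, the 5 most abundant on X, and for each list described the most abundant, highest and lowest member, or all members of lists of at most 14 genes. Alternatives covered the added RPKM, the filter, the gene set, the scaling, the fold, the XO group and the promoter length.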

Additional observations from a re-analysis of the deposited data

How the results depend on the processing

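Leaving out single libraries could not be run, and no paired analysis was possible because the RPKM table used here holds only group means. The difference between X and autosomes was positive in all 11 alternatives, from 0.57 without a filter (3677 and 19705 genes) to 0.74 with the libraries labelled mys-1(RNAi) as the XO group. Without a filter the X median was 0.31. Centering on the autosomal median, a rescaling that changes no difference between chromosomes, gave medians of 0.00065 and 0.019 for chromosomes I and II, 0.0027 and 0.0075 for III and IV, -0.026 for V and 0.70 for X. The group of 28 X-linked genes with a promoter peak in the XX list alone had a median of 0.16 over 16 genes with promoters of 1000 bp. Counts past 2-fold changed with the gene set and the fold. They are given as higher and lower on X, then higher and lower on autosomes, for the counts that moved by over 1.5 times. Shares of the genes of each set are in brackets, since the sets differ in size. As reported, the shares were 22.5%, 8.4%, 6% and 15.4%. Without a filter, 584 (15.9%) were lower on X and 1274 (6.47%) and 3802 (19.3%) on autosomes. With a mean above 5 RPKM they were 354 (20.3%), 102 (5.86%), 393 (4.23%) and 983 (10.6%). With more than 1 RPKM in both groups, 117 (5.16%) were lower on X and 482 (4.18%) and 1286 (11.1%) on autosomes. Restricted to protein-coding genes, 374 (18.5%) and 110 (5.43%) on X and 409 (3.71%) higher on autosomes were left. Without overlapping genes they were 267 (20.7%), 108 (8.39%), 357 (5.36%) and 958 (14.4%). At 1.5-fold the counts were 1108 (43.5%), 328 (12.9%), 1400 (11%) and 3557 (28%), and at 4-fold 156 (6.12%), 97 (3.81%), 284 (2.23%) and 679 (5.34%). With the libraries labelled mys-1(RNAi) as the XO group, the distance of autosomal members from all autosomal genes turned from -0.24 to 0.16 for propionate and methionine-cycle genes, from 0.13 to -0.055 for hedgehog-related genes, from -0.036 to 0.095 for nuclear hormone receptors, from -0.061 to 0.052 for sex determination and from 0.061 to -0.016 for heat shock proteins; the cause was not tested. It became lower for histones (-0.46 to -1.22), C-type lectins (-0.24 to -0.40), body-shape collagens (-0.019 to -0.24), cuticle collagens (-0.072 to -0.18) and lysozymes (-0.050 to -0.20), and nearer 0 for pan-neuronal genes (-0.20 to -0.070), neuropeptides (-0.18 to -0.086), molting genes (-0.20 to -0.059), insulin-like peptides (-1.43 to -1.09) and pharynx muscle (-1.11 to -0.89). For sperm and lipid genes it rose from 0.055 to 0.34 and from 0.0048 to 0.24. For touch receptor neuron genes it fell from 0.59 to 0.46. Without a filter it changed sign for sperm genes (to -0.13) and for 5 lists within 0.1 of all autosomal genes, and lectins had -0.037 and lysozymes -0.26.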

Other observations

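The caenacin genes, which encode antimicrobial peptides of the epidermis, were listed after their values had been seen and had values on both sides of no difference. Of 9 that passed the filter, 4 were at least 2-fold higher in dpy-21(e428) XX than in XO vector RNAi and 2 were lower, beside 8.76% and 14.3% of all genes. The X-linked cnc-8 had 482 RPKM in dpy-21(e428), 183 in XO vector RNAi and 182 in wild-type XX (log2 ratio 1.40), and the autosomal cnc-4 had 95.3, 18.9 and 24.2 RPKM (2.33). In contrast, cnc-11 had 2.03, 18.3 and 0.175 RPKM (-3.11), so that it was far higher in XO vector RNAi than in both XX groups.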
